A study of Homo sapiens with 4 samples.

Results

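Small RNA genes were examined in poly(A)-selected libraries, in which such genes are annotated and receive FPKM values although most of their finished RNAs carry no poly(A) tail. FPKM is the number of fragments scaled to the length of the annotated gene and to the size of the library. The members were selected on their measured level and were the annotations of the types miRNA, snRNA, snoRNA and misc_RNA whose mean over the 4 libraries was at least 1 FPKM. They numbered 582 of the 2554 annotations of these types and of 33845 genes in all. Because the mean FPKM selected them, their levels are a description and no test was made of them.

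The libraries came from SW620, a line of colorectal cancer cells that derives from a metastasis in a lymph node, kept in RPMI medium at passages 12 to 15. A pair of GAP43 libraries came from cells stably transfected with a Flag-GAP43 plasmid, and a pair of control libraries came from cells which, per the growth notes, received Control plasmids. The plasmid gives neomycin resistance, and GAP43, a protein of neuronal growth cones, cannot be told apart from plasmid integration or selection as the source of any difference. Whether the 2 libraries of a group stem from separate cultures is not stated, and the p-values rest on a spread that may be technical. The transfected gene, GAP43, was at 16.3 and 9.89 FPKM in the GAP43 libraries, where the controls had 4.40 and 4.14. All 7 epithelial markers, among them EPCAM and KRT8, were above 1 FPKM, whereas the markers of fibroblasts (COL3A1 at 0 in each library), leukocytes (CD3E at most 0.0364 FPKM) and endothelium (KDR at 0 in each library) had means under 1 FPKM, except LUM and LYZ.

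MicroRNAs are short RNAs cut from hairpins in longer transcripts, and they guide Argonaute proteins to messenger RNAs through their seed. The snRNAs U1, U2, U4, U5 and U6 form the core of the spliceosome, and U7 acts in histone mRNA processing. Box C/D snoRNAs guide methylation and box H/ACA snoRNAs guide pseudouridylation of ribosomal RNA, and in human cells most are released from introns of other genes. The class misc_RNA here holds Y RNAs, which bind the Ro protein, 7SL, the RNA of the signal recognition particle, and 7SK, which holds back the elongation factor P-TEFb. Many copies of U6, Y, 7SL and 7SK in the genome are pseudogenes.

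The members comprised 247 of 910 miRNAs (27.1%), 115 of 600 snRNAs (19.2%), 95 of 272 snoRNAs (34.9%) and 125 of 772 misc_RNAs (16.2%). The sequences of a few members are shown here, to let copies and guide families be compared. The guide RNAs are represented, as GENCODE transcripts with GRCh38 positions, by 3 snoRNAs with boxes C (TGATGA) and D (CTGA) in capitals, and SNORA33, with its terminal ACA in capitals. SNORD14A (chr11:17074654-17074744, minus) and SNORD14E (chr11:123058077-123058161, minus) are copies of 1 guide in different genes and were 77.4% identical. SNORD100 (chr6:132816802-132816877, plus) and SNORA33 (chr6:132817219-132817348, plus) sit in introns of the same gene, RPS12.
SNORD14A: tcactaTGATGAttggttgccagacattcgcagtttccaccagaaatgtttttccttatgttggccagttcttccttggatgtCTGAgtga
SNORD14E: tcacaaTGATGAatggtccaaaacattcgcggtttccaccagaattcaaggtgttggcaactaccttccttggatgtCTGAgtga
SNORD100: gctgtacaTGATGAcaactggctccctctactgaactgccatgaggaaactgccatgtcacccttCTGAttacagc
SNORA33: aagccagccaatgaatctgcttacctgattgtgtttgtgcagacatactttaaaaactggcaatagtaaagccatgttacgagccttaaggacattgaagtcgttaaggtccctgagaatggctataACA

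By symbol, 148 of the 247 miRNA members were matched to RefSeq (GRCh38.p14). Those below are members of well-known families, with the seed, bases 2 to 8, in capitals. The first 3 share the seed AAUACUG and the next pair share GCUACAU.
hsa-miR-200b-3p: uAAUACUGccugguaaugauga
hsa-miR-200c-3p: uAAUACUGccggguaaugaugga
hsa-miR-429: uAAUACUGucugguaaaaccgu
hsa-miR-221-3p: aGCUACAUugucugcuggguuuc
hsa-miR-222-3p: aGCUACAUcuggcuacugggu
hsa-miR-25-3p: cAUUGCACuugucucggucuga
Each value below belongs to the annotated hairpin, which is longer than these mature RNAs, and the reads were 150 bases long.

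In each library the product of FPKM and annotated length was a whole multiple of its smallest value for 100% of genes, within 0.01, so fragments could be recovered. The median length was 86 bases for miRNA members, 106 for snRNAs, 107 for misc_RNAs and 130 for snoRNAs. A read was longer than 517 of the 582 members (88.8%). A single fragment on a gene of 100 bases was worth 0.454 to 0.518 FPKM, depending on the library, and over the members 1 fragment was worth 0.146 to 0.967 FPKM.

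Few fragments stood behind most members. The median over the 4 libraries together was 15 fragments for miRNAs, 17 for snRNAs, 26 for misc_RNAs and 27 for snoRNAs, against 2345 over all 13507 genes that averaged 1 FPKM or more. Of the 582 members, 300 (51.5%) had under 20 fragments in all, 114 had a library with none, and 41 had 100 or more. In the plot of length against fragments the lowest count rises with length, since a longer gene needs more fragments for the same FPKM.

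**Figure D1:**
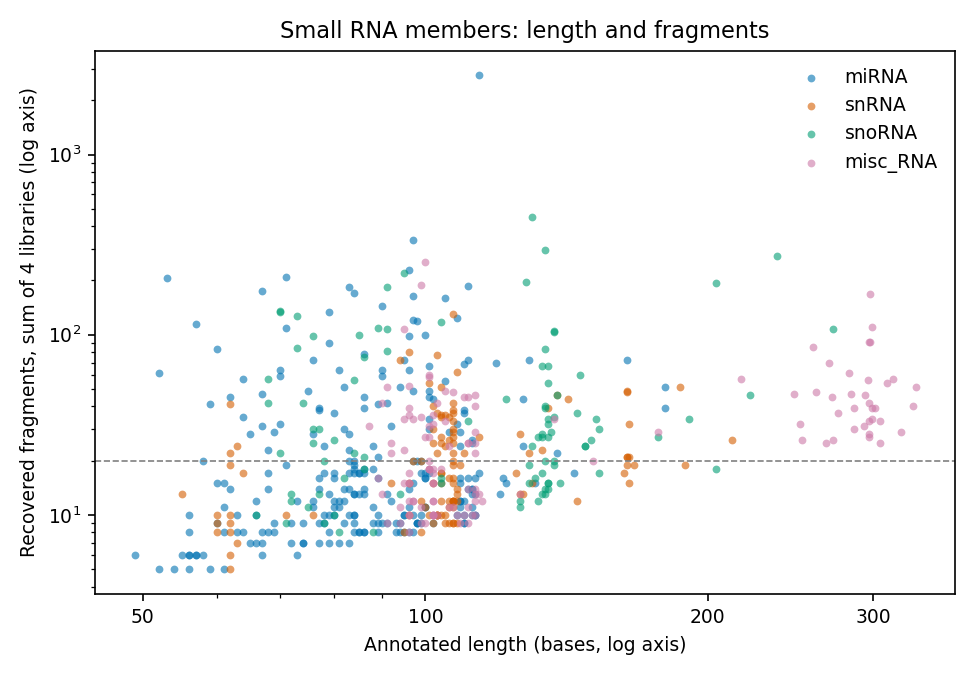
Recovered fragments summed over the 4 libraries (log axis) against annotated length in bases (log axis) for the 582 members, each a point coloured by type, with a dashed line at 20 fragments. The 300 points under the line are 51.5% of the members, and the highest point is FP236383.7 with 2747 fragments.

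Among 376 annotations under 80 bases, 121 (32.2%) were members, among 1387 of 80 to 119 bases 331 (23.9%), and among 791 of 120 bases or more 130 (16.4%). Their median FPKM was 2.07, 2.10 and 2.00, while their median number of fragments was 12, 17 and 30.5. Across the 582 members, length and FPKM had a Spearman rho of -0.10 and length and fragments a rho of 0.32, given as descriptions because length enters both FPKM and the rule.

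The shortest member was AC131160.2, a miRNA annotation of 49 bases in an intron of YEATS2, with 0 and 1 fragments in the control and 4 and 1 in the GAP43 libraries. The longest was RN7SKP97, a 7SK pseudogene of 333 bases, with 14 and 13 fragments against 16 and 8. At the threshold stood MIR649 (mean 1.002 FPKM, with 1 and 1 fragments against 3 and 3) just inside, and MIR23A, from a well-studied miRNA cluster, just outside at 0.997 FPKM with 3 and 2 fragments against 1 and 0. For snRNAs, RNU6-1150P was just inside at 1.01 FPKM and RNU6-878P just outside at 0.996. For snoRNAs, a SNORA70 copy was inside at 1.05 FPKM and SNORD38 outside at 0.960. For misc_RNAs, RN7SL431P was inside at 1.002 FPKM and a Y_RNA on chromosome 1 from 185257911 outside at 0.991.

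Of 94 names on a list of well-known small RNAs, 36 were annotations of the 4 types, and 16 of these were members. No U2 gene and no RNU6-1 was among the 36, so nothing can be said of their counts. Most textbook snRNAs among the 36 were hardly counted. None of the 9 U1, U4 and U5 genes among them was a member. Those 9 had 23 fragments in all, and no library gave any of them more than 3. For RNU5A-1, a U5 gene, the libraries held 1 and 0 fragments in the control and 1 and 0 in the GAP43 group. Of the U6 genes, RNU6-7 had 1 and 1 against 0 and 0, whereas RNU6-8, 99.1% identical to RNU6-1, was a member with 10 and 5 against 4 and 6. Reads from near-identical U6 genes may have been placed on any of them, so such values are uncertain. VTRNA1-1, a vault RNA, had 0 and 0 against 1 and 2 fragments.

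RN7SK, the 7SK gene itself, passed the cut with 1.29 and 0.625 FPKM in the control and 1.51 and 2.48 in the GAP43 libraries, from 9 and 4 against 11 and 16 fragments. Both GAP43 values lay above both controls. The log2 difference was 0.61 ± 0.28 (SE), with a limma adjusted p of 0.692. SNORD3A, a gene of the U3 snoRNA that acts in ribosomal RNA processing, stayed under 1 FPKM at a length of 699 bases, with 3 and 2 against 3 and 17 fragments.

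The member with the most fragments was FP236383.7, annotated as a miRNA of 114 bases at chr21:8435246-8435359 on the plus strand. It held 367 and 362 fragments in the control and 435 and 1583 in the GAP43 libraries, which is 153 and 164 against 173 and 711 FPKM. GAP43 replicate 2 stood at 4.49 times the control mean, and GAP43 replicate 1 at 1.09 times. The log2 difference was 1.14 ± 0.62 (SE), and it did not pass the test (limma, adjusted p = 0.692). In RefSeq this interval starts 2024 bases after the start of RNA45SN1, a 45S ribosomal RNA unit, and 1630 bases before its 18S RNA, in the spacer.

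Of the 8 small RNA annotations inside 45S units of chromosome 21, 7 were members. MIR3648-1 (8 and 4 against 7 and 20 fragments) and FP236383.5 (14 and 9 against 11 and 17) both start 2485 bases into their units and have 180 bases each. MIR3687-1 had 1 and 3 against 2 and 9 fragments, again in the spacer. All 4 spacer members had their highest count in GAP43 replicate 2. The 3 members within the 28S RNA had their lowest count in that library: FP236383.10 with 37 and 29 against 32 and 17, FP236383.9 with 8 and 9 against 12 and 2, and FP236383.3 with 2 and 2 against 2 and 0. The units are near-identical repeats, so the division of reads among them is uncertain.

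Other miRNA members had lower levels. MIR5587, in an intron of CAPN15 (a calpain family gene), had 41.1 and 45.9 FPKM in the control and 38.5 and 65.7 in the GAP43 libraries from 46, 47, 45 and 68 fragments, and MIR3176 in the same gene had 16.3 and 17.3 against 17.6 and 27.3. MIR570 had 46.4 and 32.0 against 37.4 and 53.9 FPKM, in an intron of MUC20-OT1, whose own mean was 1.89 FPKM. MIR621, outside annotated genes, had 35.5 and 24.3 against 29.3 and 26.7. The groups overlapped in each of these except MIR3176, in which both GAP43 values lay above both controls.

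MIR200B, MIR200A and MIR429 lie within 1996 bases of chromosome 1 and are known for keeping epithelial cells epithelial by acting on ZEB1 and ZEB2. MIR200B had 17.1 and 20.98 FPKM in the control and 13.5 and 31.9 in the GAP43 libraries. MIR429 had 17.7 and 19.95 against 14.8 and 58.0, and MIR200A 5.98 and 7.46 against 7.35 and 11.1. Together the 3 held 85 and 93 fragments in the control and 78 and 187 in the GAP43 libraries, so that only GAP43 replicate 2 stood above the controls. MIR200C, on chromosome 12, had 2 and 3 against 1 and 9 fragments.

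MIR25 and MIR93, miRNAs of the MCM7 intron that are known in proliferating cells, differed in level. MIR25 had 20.9 and 18.5 FPKM in the control and 15.7 and 45.1 in the GAP43 libraries, whereas MIR93 had 2.37 and 2.59 against 0 and 1.28, from 4 and 4 against 0 and 2 fragments. MCM7, a subunit of the replicative helicase, had 151.9 and 149.9 against 133 and 111 FPKM. The third miRNA of that intron, MIR106B, was outside the members with 2 and 0 against 0 and 3 fragments. MIR221 and MIR222 had 8 and 10 against 11 and 8, and 3 and 3 against 6 and 2 fragments, and MIR210, a hypoxia-responsive miRNA, had 6 and 11 against 6 and 15. MIR135B, a miRNA known from colorectal tumours, in an intron of LEMD1, had 7 and 5 against 1 and 3 fragments, and MIR215 had 2 and 3 against 1 and 3.

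The plot of levels by library puts such members side by side.

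**Figure D2:**
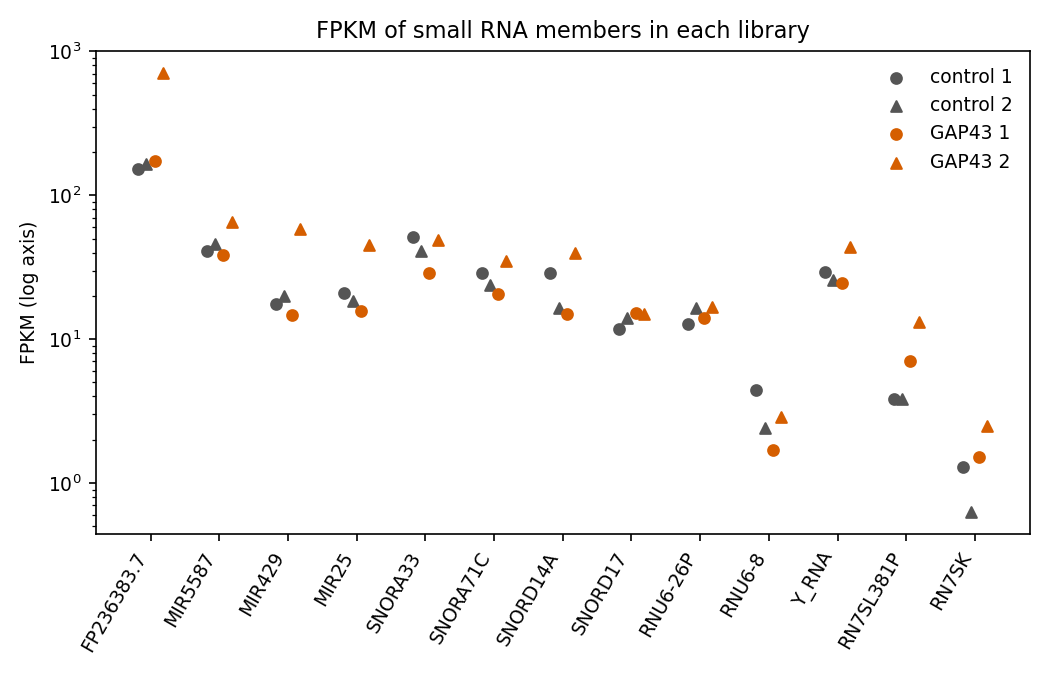
FPKM (log axis) of 13 named members in each of the 4 libraries, circles for replicate 1 and triangles for replicate 2, grey for control and orange for GAP43. GAP43 replicate 2 is the highest point for FP236383.7 (711 FPKM), MIR429 (58.0) and MIR25 (45.1), while RNU6-26P lies between 12.8 and 16.8 FPKM in the 4 libraries.

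Among snRNA members, 72 carried U6 names and 16 U7 names. The median identity of the U6 members to the RNU6-1 gene was 82.2% (71 with sequence), and that of the 322 U6 annotations below the cut was 82.2% as well (318 with sequence). RNU6-26P, the snRNA member with the most fragments, had 12.8 and 16.4 FPKM in the control and 13.99 and 16.8 in the GAP43 libraries, a log2 difference of 0.07 ± 0.20 (SE). It lies on the same strand as DCBLD2, in an intron. RNU6-1262P, in an intron of SLC7A6 on the other strand, had 10.4 and 8.09 against 14.6 and 6.94 FPKM and was 71.96% identical to RNU6-1. RNU6-850P had 12.9 and 6.53 against 6.60 and 10.4 FPKM.

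Of the 90 intronic snoRNA members, 88 (97.8%) lay in genes with a mean of 1 FPKM or more, as did 114 of 142 intronic snoRNAs below the cut (80.3%). SNORA33 had the most fragments, 140 and 103 in the control and 83 and 124 in the GAP43 libraries, or 51.0 and 41.0 against 28.96 and 48.9 FPKM. RPS12, a ribosomal protein gene, had 1856 and 2175 against 1717 and 1054 FPKM on its own exons. SNORD100 and SNORD101 from other introns of RPS12 had 22.4 and 15.0 against 5.97 and 20.2, and 17.5 and 8.51 against 11.2 and 19.0 FPKM. In each of the 3 snoRNAs GAP43 replicate 2 was above GAP43 replicate 1, while RPS12 was lower in replicate 2.

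SNHG17, a noncoding host gene, held 4 members, SNORA71A to SNORA71D. SNORA71C had 28.6 and 23.9 FPKM in the control and 20.6 and 34.8 in the GAP43 libraries, SNORA71A 6.36 and 5.79 against 6.77 and 11.5, and SNORA71B 5.75 and 4.38 against 3.17 and 6.03. SNORA71D had 6 and 7 against 4 and 3 fragments. SNHG17 itself had 17.6 and 17.2 against 14.1 and 19.2 FPKM. The 4 guides of 1 gene thus differed in level from 1.83 to 27.0 FPKM in the mean.

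SNORD14A, in RPS13, had 28.6 and 16.5 FPKM in the control and 15.0 and 39.98 in the GAP43 libraries. SNORD14E, in the chaperone gene HSPA8, had 8.36 and 7.31 against 4.27 and 39.2 FPKM, from 15 and 12 against 8 and 65 fragments. HSPA8 had 469.5 and 416 against 370.3 and 331 FPKM, its lowest value in the library in which SNORD14E was highest. SNORD83A, in the ribosomal protein gene RPL3, had 26.4 and 22.3 against 22.4 and 43.1 FPKM. SNORD17, in SNX5, had 11.8 and 13.98 against 15.3 and 14.9 FPKM, and SNORA73B, in RCC1, had 16.5 and 7.61 against 7.11 and 15.1.

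With the box letters searched on the transcript strand, TGATGA and CTGA were both found in 26 of the 41 C/D members with sequence (63.4%) and in 19 of 31 C/D annotations below the cut (61.3%). For H/ACA guides, ANANNA and an ACA within the last 6 bases were found in 37 of 45 members (82.2%) and in 81 of 103 below the cut (78.6%). ANANNA is short and may overlap the ACA.

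Of the misc_RNA members, 85 carried Y names (77 only as Y_RNA), 28 were 7SL and 6 were 7SK sequences. The median identity was 85.3% for Y members to the nearest of RNY1, RNY3 and RNY4, 80.8% for 7SL members to RN7SL1, and 76.7% for 7SK members to RN7SK. The Y_RNA of chromosome 16 from 14915457 had the highest level, 29.4 and 25.9 FPKM in the control and 24.5 and 44.1 in the GAP43 libraries, in an intron of AC138932.1 on the other strand. Another on chromosome 11 from 47726894, 92.2% identical and within an exon of FNBP4 on the same strand, had 12.9 and 22.0 against 26.1 and 32.6 FPKM, and fragments of FNBP4 itself cannot be told apart from its own.

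By position, 501 of the 582 members (86.1%) lay in introns in GENCODE 29, 13 in exons of another gene and 68 outside genes. Below the cut, 1584 of 1972 (80.3%) were intronic. The annotations of snoRNA members were intronic in 94.7% of cases and miRNA members in 82.6%. Of intronic members, the same strand as the overlapping gene was held by 170 of 204 miRNAs (83.3%), 78 of 90 snoRNAs (86.7%), 60 of 98 snRNAs (61.2%) and 61 of 109 misc_RNAs (56.0%). Below the cut the shares were 68.2%, 59.9%, 51.9% and 56.6%. No source used here states a strand setting in the counting, so reads of a member and of a gene across it on either strand cannot be told apart.

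Where several genes overlapped an intronic annotation, the one with the highest mean FPKM on either strand was taken. This choice raises the level of the overlapping gene and lowers the ratio to it. The overlapping genes of intronic members had a median level of 10.7 FPKM, against 5.32 FPKM for those of intronic annotations below the cut. A mean of at least 1 FPKM was held by 453 of 501 (90.4%), and below the cut by 1298 of 1584 (81.9%). The member's FPKM was a median of 0.238 times that of the overlapping gene (496 pairs, quartiles 0.0879 and 0.662), and it was above it for 86 of 496 (17.3%). The ratio was lowest for snoRNAs, at 0.130. It was 0.226 for 366 members on the same strand and 0.252 for 130 on the other.

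**Figure D3:**
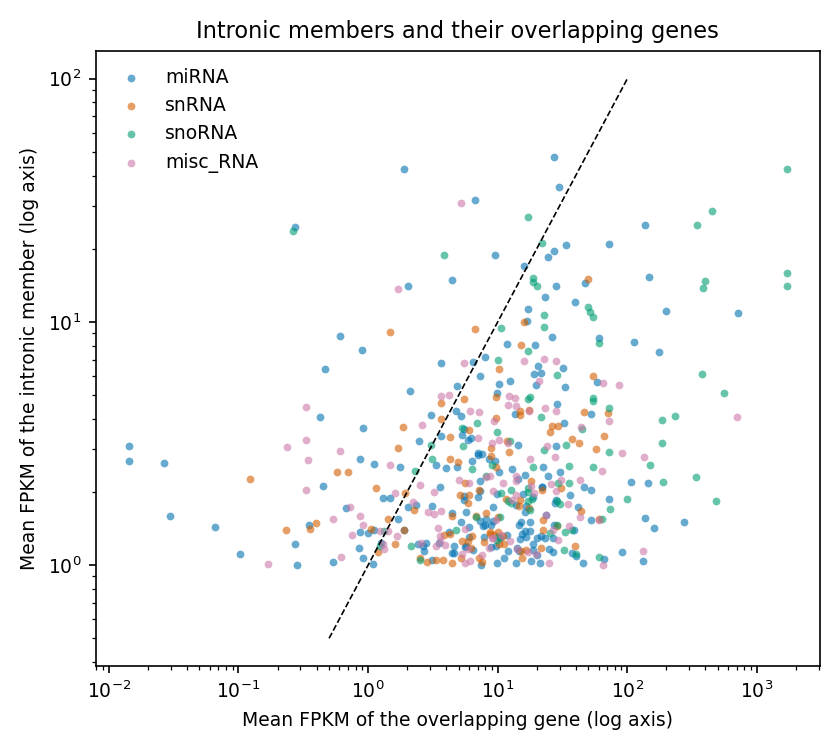
Mean FPKM of 496 intronic members against the mean FPKM of the gene that overlaps them (both log axes), with points coloured by type and a dashed line of equality. Of the 496 points 86 lie above the line, and the RPS12 snoRNAs are the green points at the far right.

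In 35 genes there were 2 or more members, and such members are not independent of each other where they lie on its strand. A pair of SNORD63 copies lay at HSPA9 (70 and 68 bases), with 32 and 23 against 31 and 49 fragments for one and 14 and 7 against 4 and 17 for the other. SNORD12B and SNORD12C in ZFAS1 had 32 and 23 against 20 and 33, and 35 and 33 against 14 and 27 fragments.

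The comparison of GAP43 with control libraries asked whether small RNA annotations differed after GAP43 overexpression. At an unadjusted p under 0.05 in limma on log2(FPKM + 1), 98 of 582 members (16.8%) were higher and 24 (4.12%) were lower in the GAP43 libraries. Over all 13507 genes tested the shares were 3.05% (412 genes) and 2.84% (383 genes). These shares are not on equal terms, since the test borrows spread from genes of like FPKM, whatever their number of fragments. The members also spread more between the controls. For control replicate 1 against the control mean, the 5th percentile was -0.63 for members and -0.25 for all genes. Some other noncoding types also had larger shares of higher genes than all genes had, as given below. After Benjamini-Hochberg adjustment none passed, among the members or among all genes (0.0%), and the lowest adjusted p of a member was 0.692. With voom, a limma method that weights each value by its count, 23 members (3.95%) were higher and 5 (0.859%) lower, against 4.45% and 1.41% of all genes, and again none passed adjustment. In this test, which also changed the scale of the values, the members' share was not above that of all genes. On fragments scaled to the library total and not to length, 18 members (3.09%) were higher, against 5.02% of all genes, and 0 were lower.

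Both GAP43 values lay above both controls for 142 members (24.4%), where this held for 17.1% of all genes tested, and below both for 50 (8.59%), where it held for 24.1%. By type, 52 of 247 miRNAs, 31 of 115 snRNAs, 21 of 95 snoRNAs and 38 of 125 misc_RNAs lay above. Of the 98 members higher at an unadjusted p, 50 had under 20 fragments in all, and so had 17 of the 24 lower ones.

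The median log2 difference of the members was 0.27, against -0.04 over all genes tested. It was 0.28 for miRNAs, 0.30 for snRNAs, 0.21 for snoRNAs and 0.26 for misc_RNAs. The libraries differed in this: against the control mean, the members in GAP43 replicate 1 had a median of 0.09 and those in replicate 2 one of 0.51, where all genes had -0.01 and -0.07. GAP43 replicate 2 held the highest of the 4 values for 307 members (52.7%), as it did for 31.3% of all genes tested. Without GAP43 replicate 2, the median of the members was 0.09. For snoRNAs the medians were -0.12 in GAP43 replicate 1 and 0.53 in replicate 2, on opposite sides of the controls.

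**Figure D4:**
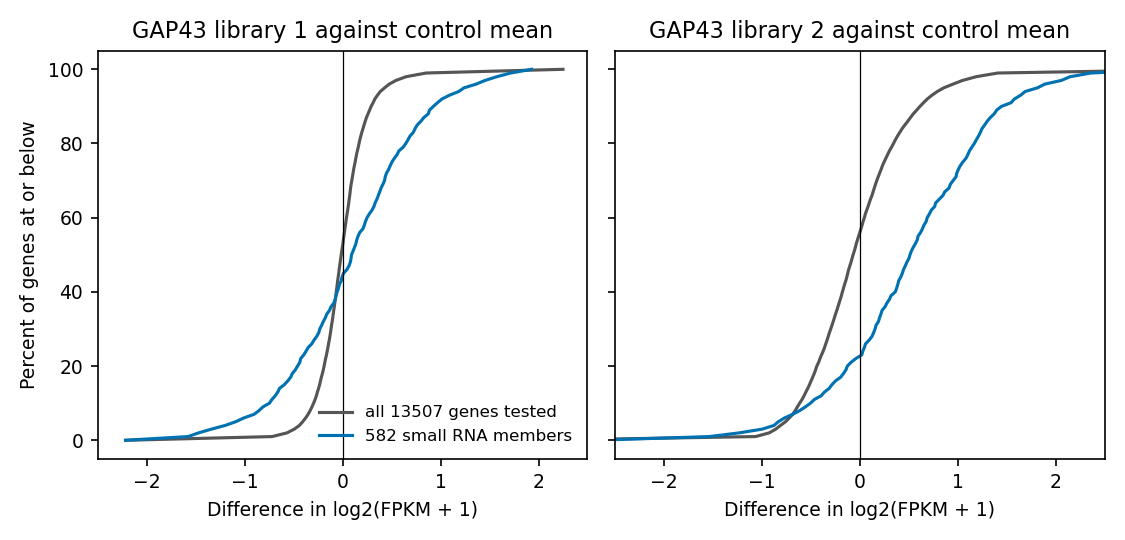
Cumulative distribution of the difference in log2(FPKM + 1) from the control mean for GAP43 library 1 and GAP43 library 2, with the 582 members in blue and all 13507 genes tested in grey. In library 1 the member median is 0.09, and in library 2 the blue line is shifted to a median of 0.51 while the grey median is -0.07.

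Among other gene types the median log2 difference was 0.21 for 541 lincRNAs, 0.21 for 669 antisense RNAs and 0.27 for 145 sense intronic RNAs, -0.08 for 10692 protein-coding genes and -0.02 for 347 processed pseudogenes. In GAP43 replicate 2 alone, the sense intronic RNAs had 0.46 and the lincRNAs 0.30. At an unadjusted p under 0.05 in limma, 11.3% of the lincRNAs, 8.22% of the antisense RNAs and 8.97% of the sense intronic RNAs were higher. Lower were 0.739%, 0.897% and 0.0%. Of the protein-coding genes 1.23% were higher and 2.92% lower, and of the processed pseudogenes 5.76% and 8.65%. In this test, a larger share of higher calls than over all genes was thus not particular to the members. These types passed the same filter on the mean FPKM. With voom the members had no such excess, with 3.95% higher against 4.45% of all genes. Whether intronic or unspliced RNA had a part in the members' values was not tested.

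The members with 100 or more fragments, which carry the least counting error, numbered 41. At an unadjusted p under 0.05, 7 of them were higher and 0 were lower, where 3.05% and 2.84% of all genes tested were. In 30 of them the difference was above 0, and GAP43 replicate 2 was highest for 32. For GAP43 replicate 1 they had a median of -0.15, and for replicate 2 of 0.59. RN7SL381P, a 7SL pseudogene in an intron of GSE1, had 24 and 22 fragments in the control and 46 and 76 in the GAP43 libraries, a log2 difference of 1.14 ± 0.28 (SE), with GSE1 at 11.6 and 14.5 against 13.6 and 24.1 FPKM. SNORD6, in TAF1D, had 30 and 14 against 43 and 40 fragments. The groups did not overlap in either, and both had a limma adjusted p of 0.692.

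The level rule itself favours a difference where a member reached a mean of 1 FPKM through a single group. Of the 98 higher members, 47 had a control mean under 1 FPKM, and of the 24 lower ones 15 had a GAP43 mean under 1 FPKM, so their differences are descriptions. The 5 higher members with the smallest p and no overlap had few fragments, and 3 of them, AC024937.1, SNORD121A and the Y_RNA of chromosome 20, passed only through the GAP43 libraries. AC024937.1, a miRNA annotation in an intron of SDHAP1, had 0 and 0 fragments in the control and 7 and 6 in the GAP43 libraries. RNU6-510P, outside genes, had 9 and 5 against 27 and 21, a ratio of 3.67 with a 95% exact counting interval of 1.99 to 7.21. SNORD121A, in UBAP2, had 1 and 1 against 9 and 5. A Y_RNA on chromosome 1 from 12024012 had 5 and 5 against 14 and 16, a ratio of 3.21 (1.53 to 7.37). A Y_RNA on chromosome 20 from 44344839 had 2 and 1 against 8 and 12. These intervals cover counting error only, and the fragments carry no molecular identifiers, so they are not independent molecules. The members were picked for small p and no overlap, so the intervals are no test of a difference. UBAP2, over SNORD121A, had 8.06 and 8.31 against 7.97 and 7.93 FPKM.

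The 5 lower members were as thinly covered, and AL357515.1, RNY4P19 and the Y_RNA of chromosome 11 passed only through the control libraries. AL357515.1, outside genes, had 9 and 6 fragments in the control and 0 and 1 in the GAP43 libraries. A Y_RNA on chromosome 11 from 13686550, in FAR1, had 5 and 4 against 0 and 0. RNY4P19 had 3 and 11 against 1 and 0. MIR103A2, in an intron of the pantothenate kinase gene PANK2, had 6 and 7 against 3 and 1, a ratio of 0.329 (0.0783 to 1.07), and SNORD126, in CCNB1IP1, 5 and 4 against 2 and 2, a ratio of 0.476 (0.107 to 1.71). SNORA79, in the same gene, had 10 and 2 against 1 and 11. The intervals of MIR103A2 and SNORD126 include 1, and no interval here is a test, since the members were picked for their small p. Each of these 10 members had a limma adjusted p of 0.692.

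As a share of all recovered fragments, the members took 0.0241% and 0.0206% in the control and 0.0239% and 0.0466% in the GAP43 libraries, of 17473071 to 21883137 fragments a library. The means were 0.0223% ± 0.00243 (SD, n = 2) and 0.0353% ± 0.0161 (SD, n = 2), and an exact permutation test over the libraries, 2-sided, gave p = 0.667. With 2 libraries against 2, the smallest p it allows is 0.333. Without FP236383.7, which held 12.0% of the 22805 member fragments, the shares were 0.0223% and 0.0189% against 0.0219% and 0.0376%, and the exact p was again 0.667. GAP43 replicate 1 was thus within the range of the controls, and GAP43 replicate 2 was above it, with or without that member.

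By type, the misc_RNAs took 0.00437% and 0.00390% in the control and 0.00494% and 0.00817% in the GAP43 libraries, and the snRNAs 0.00284% and 0.00249% against 0.00333% and 0.00462%. In both types the GAP43 libraries lay above the controls, with an exact permutation p of 0.333, the lowest possible. The snoRNAs took 0.00642% and 0.00513% against 0.00499% and 0.00981%, with GAP43 replicate 1 below both controls. The miRNAs took 0.0104% and 0.00910% against 0.0106% and 0.0240%, with an exact permutation p of 0.333. Without FP236383.7 they took 0.00871% and 0.00736% against 0.00866% and 0.0150%, in which the groups overlapped, with an exact permutation p of 0.667.

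The intronic members were compared with the genes that overlap them. Across the 453 whose overlapping gene was tested, the 2 log2 differences had a Pearson r of 0.17, and across the 44 of these with at least 80 fragments an r of 0.46, given as descriptions since members of 1 gene share it and all points share the 4 libraries. The median difference was 0.26 for the members and -0.07 for their overlapping genes, and the member's was the larger in 336 of 453 pairs.

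Proteins that make or bind small RNAs were counted from 8 lists with 181 tested genes. At an unadjusted p under 0.05, 0 were higher and 8 were lower in the GAP43 libraries, where 3.05% of all genes tested were higher and 2.84% lower, and none passed adjustment. Their median log2 difference was -0.17, where all genes had -0.04, with -0.08 in GAP43 replicate 1 and -0.29 in replicate 2. The listed genes were all protein-coding. Of the 10692 protein-coding genes tested, 1.23% were higher and 2.92% lower. Their median was -0.08, with -0.03 in GAP43 replicate 1 and -0.14 in replicate 2. The difference from the controls was thus larger in GAP43 replicate 2 than in GAP43 replicate 1. For the 36 spliceosomal snRNP and assembly genes 3 were lower, with a median of -0.37. PRMT5, which methylates Sm proteins, had 19.4 and 20.9 FPKM in the control and 14.8 and 12.8 in the GAP43 libraries. LSM6, of the ring that binds the U6 end, had 17.2 and 16.4 against 13.4 and 10.6.

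For the 20 snoRNP genes 1 was lower and the median was -0.30. DKC1, the pseudouridine synthase of H/ACA particles, had 71.1 and 67.6 FPKM against 50.8 and 36.9, and RUVBL1, an assembly factor, 21.95 and 22.5 against 18.3 and 13.3. Of the 24 genes of RNA polymerase III, which transcribes U6, Y, 7SL and 7SK genes, 4 were lower, with a median of -0.15. Its subunit POLR3G had 5.12 and 5.79 FPKM in the control, where the GAP43 libraries had 3.57 and 3.49. For POLR3B, another subunit, these were 4.61 and 5.23, then 3.25 and 3.27. In these 6 genes, named for their small p, both GAP43 values lay below both controls, as they did for 24.1% of all genes tested, and all had a limma adjusted p of 0.692.

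The other lists held no gene past an unadjusted p of 0.05. For the 20 miRNA biogenesis and Argonaute genes the median was 0.05, and TARBP2, a partner of Dicer, had 17.9 and 15.4 FPKM in the control against 13.4 and 11.8 in the GAP43 libraries, while RAN, the GTPase of nuclear export, had 167 and 181 against 144 and 104. The median was -0.04 for 26 genes of snRNA transcription and 3′ processing, where INTS3 had 3.604 and 3.07 against 4.15 and 4.81 FPKM and SNAPC5, of the snRNA activating complex, 9.82 and 8.04 against 7.83 and 5.35. In that list 20 of 26 genes had a difference below 0, as had 7 of the 20 miRNA biogenesis and Argonaute genes and 145 of 181 over the 8 lists. The share below 0 over all genes was not counted. The median was itself -0.04 for all genes tested and -0.08 for protein-coding genes, so more of these also lay below 0 than above it. The list median was -0.12 for 14 proteins that bind noncoding RNAs, with SRP72 at 38.6 and 47.6 against 35.6 and 23.9 and SRP68 at 26.8 and 29.1 against 24.1 and 17.9. It was -0.19 for 22 genes of the nuclear exosome, with EXOSC7 at 10.1 and 9.66 against 7.75 and 6.98 and EXOSC5 at 23.7 and 23.9 against 19.8 and 16.4. It was -0.11 for 19 genes of poly(A) tail and 3′ end formation, with PABPC4 at 33.8 and 30.0 against 25.7 and 24.7 and CPSF3 at 18.8 and 20.7 against 17.7 and 13.4.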

How the data were processed

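RNA-seq libraries of GAP43-overexpressing and control SW620 cells (2 of each) were analysed. The deposited FPKM values were made by the authors from poly(A)-purified RNA, primed with random hexamers and sequenced as 150-base paired ends. TopHat2 2.0.13, Cufflinks 1.1, Cuffdiff and hg19 are named in the notes of the submitters. Which tool counted, with which annotation and strand setting, is not given in the sources used here. GENCODE 29 held 33057 of the 33845 gene IDs, 96.4% of them with an identical start, and coordinates are therefore those of GRCh38. The members and gene lists were chosen with earlier results of these data known.

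Fragments were recovered as FPKM times annotated length over the smallest nonzero product of each library. They summed to 17473071 to 21883137 per library, and library replicates were no copies of each other (chi-square per degree of freedom 18.7 and 45.2). Genes that averaged 1 FPKM or more (13507) were tested as log2(FPKM + 1), a scale that understates changes of low genes. The tests used limma 3.58.1 (lmFit, eBayes with trend, 4.22 prior degrees of freedom) under R 4.3.3. They were 2-sided, with Benjamini-Hochberg adjustment over all these genes. The script was tested on simulated data in which only genes with more fragments than most members have were changed. That says nothing of its behaviour on thinly covered members. Overlap with other genes was read from GENCODE 29, of which 485 of the 582 members are part, and 465 members had a sequence of the annotated length. Identity is the percentage of aligned columns that match in a global alignment (Biopython 1.88). Python 3.11.15, pandas 2.3.3 and matplotlib 3.10.9 were used.

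Named members were, per type, the 3 with the most fragments, the 2 with the highest FPKM and those nearest the threshold, the 5 higher and 5 lower of smallest p among those whose groups did not overlap, the shortest and longest, those on a list of well-known small RNAs, those sharing a gene with them, and the 2 genes of each processing list with the smallest p. SNORD14E, SNORD63, SNORD12B, SNORD12C, SNORD6, the annotations of the ribosomal units, SNORD3A and others below the threshold were chosen after their values were seen. Alternatives were a pseudocount of 0.1, no filter, a mean of at least 5 FPKM or of 10 fragments, 3 other scalings, a constant prior variance, voom, a replicate block and leaving out each library. Leaving out FP236383.7 was added after seeing the data. Some sequences are not reported here.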

Additional observations from a re-analysis of the deposited data

How the results depend on the processing

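The member counts at an unadjusted p under 0.05 moved with the filter, the scaling and voom. The 98 higher and 24 lower members became 65 and 18 with no filter, 20 and 2 of 109 with a mean of at least 5 FPKM, 30 and 5 of 138 with a mean of at least 10 fragments, 18 and 0 with fragments scaled to the library total, and 23 and 5 with voom. Leaving out 1 library gave 81 to 200 higher and 29 to 62 lower members, the 200 without GAP43 replicate 1 and the 62 without GAP43 replicate 2. The 24 lower members were 39 without GAP43 replicate 1. The small RNA processing genes, 0 higher and 8 lower, were 0 and 4 with FPKM divided by its sum, 3 and 4 with fragments scaled to the library total and 4 and 4 with voom, and 0 to 2 higher and 0 to 59 lower with 1 library left out. Whether the same replicate numbers pair the samples is not stated. The deviations of same-numbered libraries had a correlation of -0.16 over the genes tested and -0.09 over the members. With 2 libraries per group this cannot decide it. A replicate block gave 182 higher and 38 lower members (31.3% and 6.53%), of which 61 and 13 passed adjustment, and 3 lower processing genes. Of all genes it gave 4.85% higher and 2.81% lower, and 152 passed adjustment. The block leaves fewer residual degrees of freedom than the main test. No other alternative that kept all 4 libraries gave an adjusted call among the members. The cause of these changes was not tested, apart from the filters at 5 FPKM and at 10 fragments, which leave fewer members. On fragments scaled to the library total, the 1 added before the log2 shrinks the differences of members.

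The median log2 difference of the members stayed above 0 under each of the 14 alternatives, from 0.09 without GAP43 replicate 2 to 0.52 with voom, and scaling by FPKM sums moved the median of all genes from -0.04 to 0.07, voom moved it to 0.10 and scaling of fragments to the library total to 0.09. The share of fragments, 0.0129 percentage points higher in the GAP43 libraries, was 0.405 points on the sum of FPKM and 0.00156 to 0.0243 points with 1 library left out. The 10 members with the smallest p kept their direction in 123 of 123 alternative values. They were picked from these same libraries as members whose groups did not overlap, so leaving out a library could not reverse them. The count is therefore no support for their differences. With fragments scaled to the library total 6 of them did not pass an unadjusted p of 0.05 in limma, and with voom 2 did not. Depth limits most members, since 300 of 582 had under 20 fragments in the 4 libraries.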

Other observations

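Other short annotations were measured outside the 4 types. Of 111 rRNA annotations, 26 had a mean of at least 1 FPKM, led by RNA5SP283, a 5S ribosomal RNA pseudogene of 119 bases, with 76 and 67 fragments in the control and 98 and 70 in the GAP43 libraries. Their median log2 difference was 0.23, and against the control mean GAP43 replicate 1 had 0.02 and replicate 2 had 0.53. At an unadjusted p under 0.05 in limma, 15.4% of these 26 were higher and 0.0% lower. RNA5SP82 had 8 and 7 against 22 and 21 fragments, a value picked out after it was seen. Of 22 scaRNAs, the guides of Cajal bodies, 5 had a mean of at least 1 FPKM, with a median of 0.17.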
